A study of Mus musculus with 10 samples.

Results

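The nuclear genes for the subunits of the mitochondrial respiratory chain and ATP synthase were followed in haematopoietic stem cells (HSCs) with and without induction of the transcription factor Sox17. The genes were set by symbol alone, but this rule and the gene lists below were chosen with earlier results of these data known. They have names starting with Ndufa, Ndufb, Ndufc, Ndufs or Ndufv and a digit, Sdha to Sdhd, Uqcr, Cox4 to Cox8 and Atp5. On the array 81 such genes had a probe set of their own, out of 19938 genes in all, with 33 in complex I, 4 in complex II, 8 in complex III, 19 in complex IV and 17 in complex V. A gene with several probe sets is represented by the one with the highest mean over all arrays. No filter on low values was applied, so all 81 were tested. Subunits with other names, such as Ndufab1 of complex I and Cyc1 of complex III, fall outside the rule.

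The study hybridised 10 Affymetrix Mouse Gene ST arrays, 5 to each group. One group came from double transgenic mice that carry (tetO)7CMVSox17-IRES-NucEGFP and the activator allele Gt(ROSA)26Sortm1(rtTA*M2)Jae, from a line of B6.Cg background, in which doxycycline turns on Sox17 together with a nuclear green fluorescent protein. The activator is carried at the Rosa26 locus, which is active in many cell types and not particular to HSCs. The other group came from littermate controls labelled wild type. Both were 8 weeks old and drank doxycycline at 2 mg/ml for 5 days, and each array took RNA from 10000 uncultured bone marrow cells sorted as CD150+CD48-Lineage-Sca1+cKit+. The labels call the aliquots independent but name no animal for any of them, so the spread behind each p-value is that of these aliquots and can be technical.

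Complex I takes electrons from NADH and complex II takes them from succinate, and both pass them through ubiquinone to complex III. Cytochrome c carries them on to complex IV, which reduces oxygen, and the proton gradient built up on the way drives complex V, the ATP synthase. Complex II is wholly nuclear encoded, while the other complexes also hold subunits made from mitochondrial DNA. Adult HSCs are known for low use of oxidative phosphorylation and a reliance on glycolysis, with respiration rising as they leave quiescence.

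The Sox17 probe set itself read 4.25 to 4.51 log2 units with the transgene and 4.02 to 4.30 in wild type, a difference of 0.16 (SE 0.089, limma adjusted p = 0.855), so the direction of every difference rests on the labels. Over the whole array 33 of 23410 tested probe sets passed an adjusted p of 0.05, 28 of them higher. Among the HSC and sort markers, Slamf1 (CD150) averaged 7.50 and 7.31 on transgenic and wild-type arrays, Kit 9.43 and 9.90, and Hlf 10.22 and 10.23. Procr, Mecom and Fgd5 were higher without a call, by 1.08, 0.33 and 0.27 (limma adjusted p = 0.247, 0.383 and 0.538), and Hoxb5 differed by -0.21. Cd48, whose protein the sort excludes, averaged 6.29 and 4.96 (adjusted p = 0.145). Of the 8 markers 5 were higher and 3 lower with 0 called. The list means did not overlap, at 0.011 to 0.29 with the transgene and -0.30 to -0.025 in wild type. Cd48 counts among the 5 and had the largest difference of the 8, 1.34, so these means are not of HSC markers alone. All 6 measured megakaryocyte and platelet markers were lower on the transgenic arrays, with list means from -0.72 to -0.25 there and from 0.15 to 0.82 on the wild-type arrays, and 1 of them, Pf4, was called. All 9 measured granulocyte and monocyte markers were higher without a call, with list means of -0.21 to 1.27 against -0.47 to -0.025. Of 9 erythroid markers 6 were lower and 3 higher with 0 called, with list means of -0.21 to 0.096 against -0.052 to 0.295. Of 7 B cell markers 4 were lower and 3 higher, and of 7 T and NK cell markers 6 and 1, with 0 called. The part of these shifts in the subunit values was not tested, and in RNA from pooled cells fewer cells of a type and less RNA per cell cannot be told apart.

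Of the 66 members with a promoter window in RefSeq (GRCm38.p6, 250 bases before to 50 after the gene's start), 19 or 28.8% held GCGCANGCG, a core recognised by nuclear respiratory factor NRF1, a regulator named for these genes. The same letters, searched on both strands, stood in 10.7% of 15005 protein-coding genes on the array. The ETS core CCGGAAG, which the factor GABP (NRF2) binds, stood in 17 members, 25.8% against 13.8% of all genes, and ATGGCGGC, a core of YY1, in 6, 9.09% against 3.83%. The SOX core AACAAT stood in 5 members, 7.58% against 9.81%. The form GCGCATGCG, which the first pattern includes, was found in 8 members, 12.1% against 2.94% of all genes. The following 4 held it before the start on the strand of the gene and, since a c follows it, on the other strand too. They are shown so that the element and its flanks can be compared between complexes I, IV and V. It is in capitals, and each line is read 5′ to 3′ on the strand of the gene.
Ndufa11 (chr17:56717677-56717735, plus strand): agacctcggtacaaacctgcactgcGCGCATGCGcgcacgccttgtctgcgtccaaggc
Cox6a1 (chr5:115349087-115349145, minus strand): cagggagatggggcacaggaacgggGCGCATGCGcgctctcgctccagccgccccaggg
Atp5g2 (chr15:102671056-102671114, minus strand): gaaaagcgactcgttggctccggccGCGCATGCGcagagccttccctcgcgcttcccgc
Atp5k (chr5:108434416-108434474, minus strand): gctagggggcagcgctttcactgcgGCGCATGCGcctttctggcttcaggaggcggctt
The element began 60 bases before the start in Ndufa11, 162 in Cox6a1, 42 in Atp5g2 and 50 in Atp5k. In Atp5l and Ndufa8 it stood before the start on the other strand only, and in Uqcr11 and Uqcrc1 at or after the start. The median difference between transgenic and wild-type arrays was -0.092 for the 19 members with GCGCANGCG and -0.055 for the 47 without. For AACAAT it was -0.080 with and -0.061 without, for CCGGAAG -0.075 and -0.061, and for GCGCATGCG -0.097 and -0.050. For ATGGCGGC the order was the other way, at -0.046 with and -0.068 without. A match is a description of the letters only.

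None of the subunit genes was called between the groups, and their differences were small. In limma with Benjamini-Hochberg adjustment over all 23410 probe sets, 0 of 81 members passed an adjusted p of 0.05, where 0.141% of all probe sets did, and the smallest adjusted p was 0.517, for Ndufc1. With no adjustment 3 members, Ndufc1, Ndufb3 and Uqcr10, had a p under 0.05, against 6.59% of all probe sets. The groups overlapped in all 81 members, while 1.47% of all probe sets had groups that did not overlap. Differences ran from -0.27 for Uqcr10 to 0.17 for Cox6a2 on the log2 scale.

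The 95% interval of the difference lay inside a 1.5-fold change in either direction for 77 of the 81 members, which is 95.1%, against 81.7% of all tested probe sets. The 4 exceptions were Cox7a1, Cox6b2, Ndufs5 and Uqcrq, and the interval of Ndufs5, the widest of the 81, ran from 0.611-fold to 1.31-fold. For all 81 it lay inside a 2-fold change, against 96.1% of all probe sets. Inside a 1.2-fold change it lay for 20, which is 24.7% against 23.9% of all probe sets. These intervals are not adjusted for the number of genes.

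**Figure D1:**
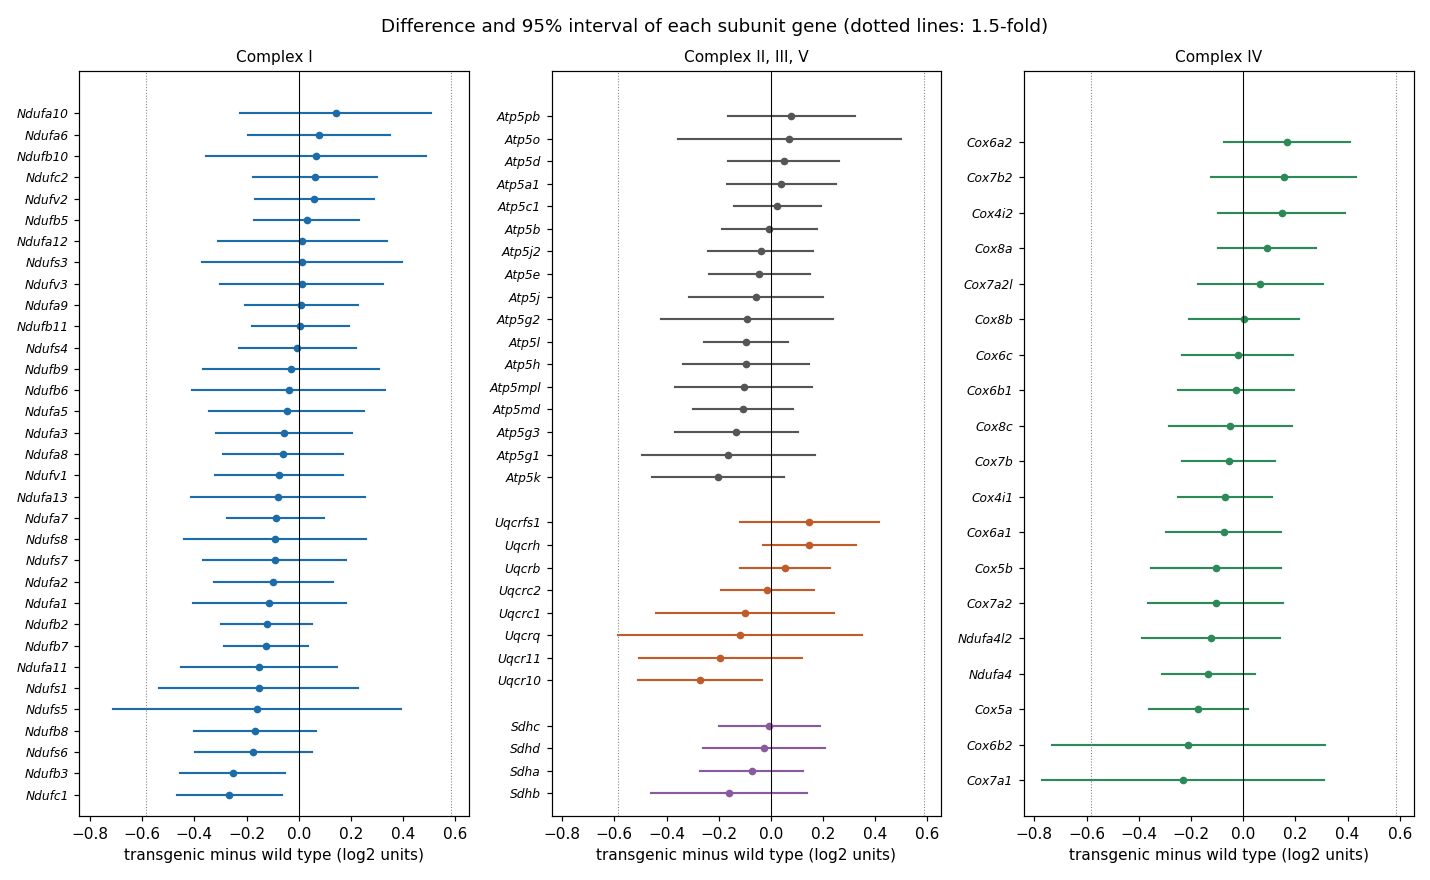
Difference between transgenic and wild-type arrays (x axis, log2 units) for each of the 81 subunit genes, by complex, with its 95% interval from limma as a line. Points lie between -0.27 (Uqcr10) and 0.17 (Cox6a2), and 77 of the 81 intervals stay between the dotted lines that mark a 1.5-fold change.

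More members had a lower than a higher mean on the transgenic arrays. The count was 56 lower and 25 higher, or 69.1% lower, against 53.7% of all tested probe sets, and the median difference was -0.057 against -0.011. Each complex had a median close to this, at -0.061 for complex I, -0.050 for complex II, -0.057 for complex III, -0.055 for complex IV and -0.057 for complex V. The split moved with single arrays. Without transgenic array 3, 47 members were lower and 34 higher, which is 58% lower against 51.7% of all probe sets, and the median was -0.020. Without wild-type array 1, 64 were lower and 17 higher, which is 79% lower against 54.7%, and the median was -0.093. These were the extremes over the 10 arrays left out in turn. Since the members share arrays and vary together, their number is no count of independent observations.

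The catalytic core of complex I showed no called change in the 6 subunits measured. NADH is oxidised by Ndufv1, Ndufv2 and Ndufs1, which hold the flavin and iron-sulfur clusters. Ndufv1 averaged 7.93 ± 0.19 on transgenic and 8.00 ± 0.17 on wild-type arrays (SD, n = 5 each), Ndufv2 9.17 ± 0.071 and 9.11 ± 0.21, and Ndufs1 8.25 ± 0.35 and 8.41 ± 0.26. The interval for Ndufs1 was the widest of these, from -0.54 to 0.23. The subunits of the ubiquinone arm differed by 0.012 for Ndufs3 (SE 0.17), -0.092 for Ndufs7 (SE 0.13) and -0.091 for Ndufs8 (SE 0.16), with limma adjusted p from 0.962 to 0.998.

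Among the 27 accessory subunits of complex I, which surround the core and are needed for its assembly and stability, 18 were lower, 9 were higher and 0 were called. Ndufc1, a small membrane-arm subunit, read 7.76, 7.39, 7.53, 7.49 and 7.63 on transgenic arrays 1 to 5 and 7.62, 7.84, 7.93, 7.90 and 7.85 on wild-type arrays 1 to 5. Wild-type array 1 lay below transgenic arrays 1 and 5, and the other wild-type arrays lay above every transgenic array. The difference was -0.27 (SE 0.091, interval -0.47 to -0.064, limma adjusted p = 0.517), and a second, dimmer probe set of Ndufc1 differed by -0.24 (SE 0.17).

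Ndufb3, another subunit of the membrane arm, read 7.68, 7.70, 7.42, 7.75 and 7.84 on the transgenic arrays and 7.78, 7.95, 8.04, 7.89 and 7.99 on the wild-type arrays. Only transgenic array 5 reached into the wild-type range, above wild-type array 1. Its difference was -0.25 (SE 0.092, limma adjusted p = 0.558). Ndufb7 and Ndufs6 followed by size of p, at -0.13 (SE 0.073) and -0.17 (SE 0.10), with adjusted p of 0.869 and 0.881. The remaining accessory subunits lay between -0.17 for Ndufb8 and 0.14 for Ndufa10.

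Complex II, succinate dehydrogenase, is shared with the citric acid cycle, and its 4 genes were all slightly lower without a call. The flavoprotein gene Sdha read 9.33, 9.30, 9.46, 9.59 and 9.23 on the transgenic arrays and 9.48, 9.34, 9.41, 9.64 and 9.43 on the wild-type arrays, so the groups interleaved (difference -0.074, SE 0.090). The iron-sulfur subunit Sdhb read 8.65, 8.27, 8.20, 8.32 and 8.36 against 8.75, 8.48, 8.07, 8.58 and 8.71. Its lowest value was on wild-type array 3, in the group with the higher mean, and the difference was -0.16 (SE 0.14, limma adjusted p = 0.934). The membrane anchors Sdhc and Sdhd differed by -0.0068 (SE 0.088) and -0.025 (SE 0.11).

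In complex III the members split by direction. Uqcr10, a small subunit, read 9.19, 9.09, 8.68, 8.91 and 9.04 on the transgenic arrays and 9.05, 9.31, 9.43, 9.27 and 9.22 on the wild-type arrays. Wild-type array 1 lay inside the transgenic range and the other wild-type arrays above it. The difference, -0.27 (SE 0.11, limma adjusted p = 0.655), had the largest size of all 81. Uqcrh, the acidic hinge protein that helps cytochrome c dock, went the other way, with 11.17, 11.11, 10.98, 11.30 and 11.09 against 10.99, 11.10, 10.97, 10.83 and 11.02, a difference of 0.15 (SE 0.082, adjusted p = 0.846). Uqcrfs1, the Rieske iron-sulfur protein of the catalytic core, differed by 0.15 (SE 0.12) and Uqcr11 by -0.19 (SE 0.14). The core proteins Uqcrc1 and Uqcrc2 differed by -0.10 and -0.014, Uqcrb by 0.055 and Uqcrq by -0.12.

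**Figure D2:**
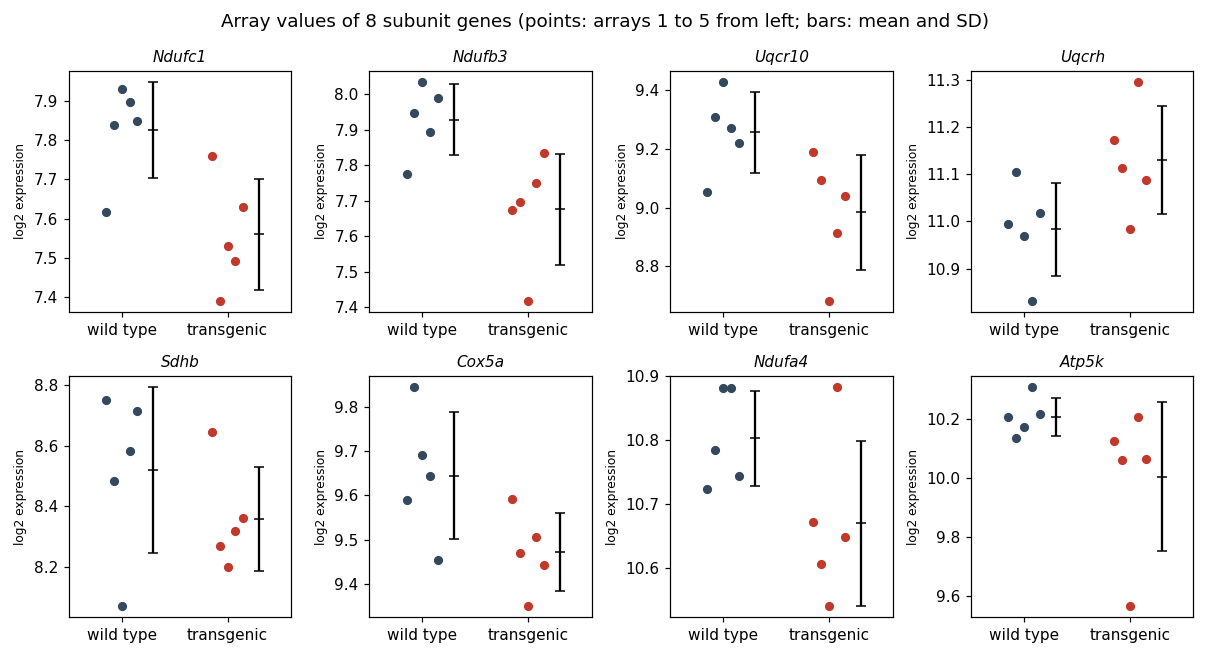
Log2 expression (y axis, a scale of its own in each panel) of Ndufc1, Ndufb3, Uqcr10, Uqcrh, Sdhb, Cox5a, Ndufa4 and Atp5k on each array, with wild type left and transgenic right, and the mean and SD of each group as a bar. The groups overlap in every panel, and in Atp5k transgenic array 3, at 9.56, lies apart from the other transgenic arrays.

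Complex IV, cytochrome c oxidase, has nuclear subunits that come in widely expressed forms and in paralogs of muscle, lung, testis or hypoxic cells. Of the 10 widely expressed subunits 9 were lower and 1 higher, with 0 called. Cox5a read 9.59, 9.47, 9.35, 9.51 and 9.44 on the transgenic arrays and 9.59, 9.84, 9.69, 9.64 and 9.46 on the wild-type arrays, with wild-type arrays 1 and 5 within the transgenic range (difference -0.17, SE 0.086, limma adjusted p = 0.806). Ndufa4, named for complex I but now placed in complex IV, differed by -0.13 (SE 0.081, adjusted p = 0.888). The 1 higher subunit was Cox8a, at 0.091 (SE 0.085), and Cox7a2l, a factor that joins complexes III and IV in supercomplexes, differed by 0.066 (SE 0.11).

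The tissue-restricted paralogs divided evenly, with 4 higher and 4 lower, and are set here beside their partners. Cox4i2, of lung and hypoxic cells, differed by 0.15 (SE 0.11) and Cox4i1 by -0.069 (SE 0.083). The muscle form Cox6a2 differed by 0.17 (SE 0.11) and Cox6a1 by -0.075 (SE 0.10). Cox7a1, also of muscle, differed by -0.23 (SE 0.25) and Cox7a2 by -0.11 (SE 0.12). The testis forms Cox6b2 and Cox7b2 differed by -0.21 (SE 0.24) and 0.16 (SE 0.13), and their partners Cox6b1 and Cox7b by -0.028 (SE 0.10) and -0.055 (SE 0.081).

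Cox8b and Cox8c differed by 0.0038 (SE 0.096) and -0.049 (SE 0.11), and Ndufa4l2, a paralog of Ndufa4 induced in hypoxia, by -0.12 (SE 0.12). The limma adjusted p of these 8 paralogs ran from 0.903 to 0.999. Group means were 3.13 to 6.48 log2 units for all of them but Cox6b2, whose probe set averaged 9.29 ± 0.43 on transgenic and 9.50 ± 0.43 on wild-type arrays (SD, n = 5 each). Whether the low probe sets measured any transcript was not tested.

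In complex V the 5 subunits of the catalytic head and central stalk were split, 3 higher and 2 lower, and lay between -0.044 for Atp5e and 0.049 for Atp5d. The beta subunit Atp5b, which carries the catalytic sites, read 10.60, 10.72, 10.70, 10.65 and 10.59 against 10.65, 10.68, 10.86, 10.46 and 10.64, a difference of -0.0062 (SE 0.082). The 3 genes of the proton-driven c ring were lower without a call, with differences of -0.16 for Atp5g1 (SE 0.15), -0.092 for Atp5g2 (SE 0.15) and -0.13 for Atp5g3 (SE 0.11). So were the 5 small membrane subunits, and 0 of them were called. Atp5k read 10.13, 10.06, 9.56, 10.21 and 10.07 on the transgenic arrays and 10.21, 10.14, 10.17, 10.31 and 10.22 on the wild-type arrays. Its difference of -0.20 (SE 0.12, limma adjusted p = 0.856) drew on transgenic array 3, without which it was -0.094.

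Atp5l, a membrane subunit at the interface of ATP synthase dimers, differed by -0.095 (SE 0.073), and its 6 probe sets ranged from -0.15 to -0.095. Atp5md differed by -0.11 (SE 0.087). The 4 peripheral stalk genes split evenly. In all, 16 members had several probe sets, which had the same sign in 14 and differed in Atp5pb, at 0.078 and -0.10, and in Ndufs3, at 0.012 and -0.0081. A further 6 probe sets were annotated to a gene and a near-identical copy together, so they were not used to choose or represent members. On these, Cox7c with Gm12338 differed by -0.10, -0.11 and -0.13, Ndufb4 with Ndufb4b by 0.0098 and -0.0018, and Ndufs5 with Ndufs5-ps by -0.070. Respiratory chain genes have many processed pseudogenes, so a signal may include copies that the annotation does not name.

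The mean level of the members differed between the groups by less than the SD of either group. Averaged over all 81, the deviation from each gene's mean was 0.062, -0.079, -0.16, 0.049 and 0.0026 on transgenic arrays 1 to 5 and -0.079, 0.076, 0.055, 0.068 and 0.011 on wild-type arrays 1 to 5. This came to -0.026 ± 0.095 and 0.026 ± 0.064 (SD, n = 5 each). Transgenic array 3 was the lowest of the 10 arrays for 27 of the 81 members, against 12.7% of all tested probe sets. It was lowest in the mean of complex I at -0.21, complex III at -0.19 and complex V at -0.17.

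**Figure D3:**
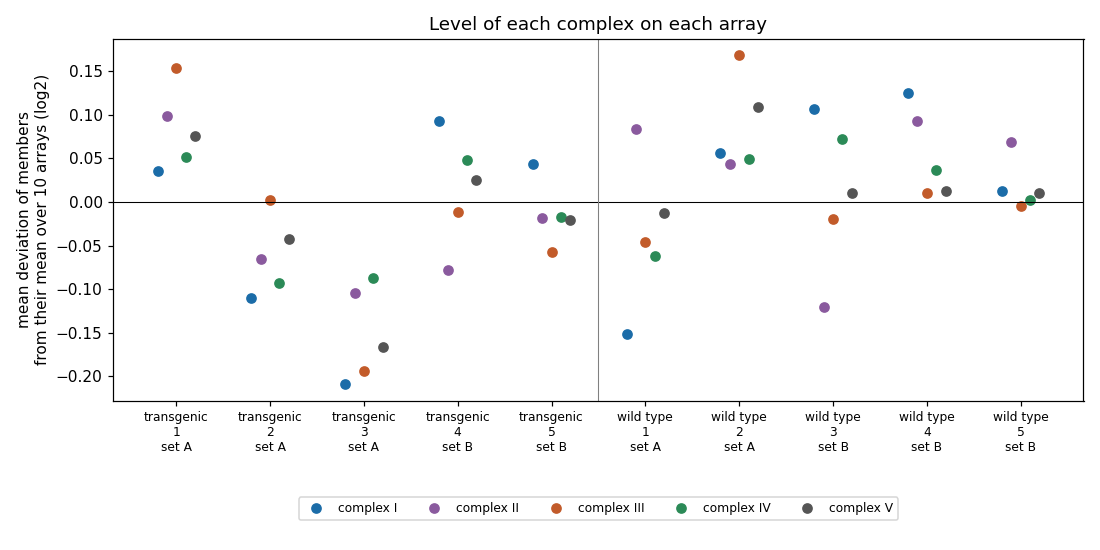
Mean deviation of the members of each complex from their mean over the 10 arrays (y axis, log2 units) on each array (x axis, with its array set), coloured by complex. Transgenic array 3 is lowest for complexes I, III and V, and the transgenic and wild-type arrays overlap in every complex.

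The 10 arrays were also split into 2 sets of 5 by the sign of a first principal component. It was fitted, over all tested probe sets, to each array's departure from its group's mean. Taking out the group means puts arrays of both groups in each set by construction, and a cut by sign always gives 2 sets. That component held 40.2% of the variance within groups. Set A held transgenic arrays 1, 2 and 3 and wild-type arrays 1 and 2, and set B the others. The members were part of the values that defined the sets, so no test between the sets is given. Group fits that use the sets carry the same limit. In 11 of the 81 members the sets did not overlap, against 9.24% of all tested probe sets. Of the 11, 9 were higher in set B. Complex I, which has 33 of the 81 members, held 7 of the 11. The mean of Ndufs5 was 7.44 ± 0.25 for set A against 8.15 ± 0.22 for set B (SD, n = 5 each), that of Ndufs3 8.995 ± 0.11 and 9.51 ± 0.11, and that of Ndufs1 8.08 ± 0.13 and 8.58 ± 0.17. Ndufa10 went the other way, with 9.95 ± 0.067 in set A and 9.44 ± 0.14 in set B, as did Atp5a1, the alpha subunit of ATP synthase. For these genes, named because their sets did not overlap, the step between sets was larger than the step between groups. With the set as a block 0 members were called, 54 were lower and 27 higher. Within set A 56 were lower and 25 higher, within set B 47 and 34, and 0 were called in either. Transgenic array 4, in set B, was the only array that read as male, with Xist at 4.32. Without it 60 members were lower, 21 higher and 0 called.

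**Figure D4:**
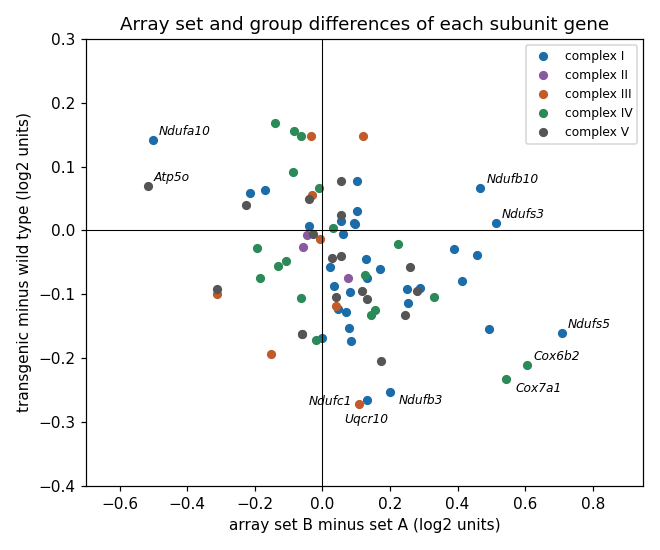
For each of the 81 subunit genes, the difference between array sets B and A (x axis) against the difference between transgenic and wild-type arrays (y axis), both in log2 units and coloured by complex. The spread along the x axis, from -0.52 for Atp5o to 0.71 for Ndufs5, exceeds that along the y axis, from -0.27 to 0.17. The sets were read from these same values, so a wide spread along the x axis is partly built in.

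Genes around the chain were likewise not called. Of 41 measured assembly factors, which insert cofactors and join subunits, 21 were higher and 20 lower, with a median difference of 0.018 and 0 past the threshold. The smallest p among them belonged to Uqcc1, a complex III factor (-0.37, SE 0.15, limma adjusted p = 0.689), Sdhaf1, which serves complex II (0.27, SE 0.12, adjusted p = 0.754), and Ttc19 (0.27, SE 0.13, adjusted p = 0.785). Of the mitochondrially encoded subunits 2 had probe sets of their own. COX2 of complex IV differed by -0.058 (SE 0.11), and ND3 of complex I by 0.21 (SE 0.21), with 0.19 on its second probe set.

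Among 21 regulators of mitochondrial biogenesis 9 were higher and 12 lower, with 0 called. The coactivator Ppargc1a averaged 7.12 ± 0.36 on transgenic and 6.46 ± 0.65 on wild-type arrays (SD, n = 5 each), a difference of 0.66 with an interval from 0.024 to 1.30 (SE 0.29, limma adjusted p = 0.738). The difference was 1.52 within array set A (limma adjusted p = 0.063) and -0.10 within array set B (limma adjusted p = 0.998), with no call in either. Set A has only transgenic arrays 1, 2 and 3 and wild-type arrays 1 and 2. These sets hold 5 arrays each and were read from values that include this gene. The contrast between the sets was not tested. Its relative Ppargc1b differed by 0.20 (SE 0.12) and the mitochondrial helicase Twnk by -0.23 (SE 0.18). In the citric acid cycle 7 of 18 genes were higher and 11 lower, again with 0 called, and the isocitrate dehydrogenase subunit Idh3a differed by 0.26 (SE 0.12, adjusted p = 0.754), Dld by 0.18 (SE 0.091) and Idh3g by -0.11 (SE 0.080). Of 19 genes for cytochrome c, carriers and electron donors, 9 were higher, 10 lower and 0 called. The adenine nucleotide carrier Slc25a4 differed by 0.16 (SE 0.090), the electron-transfer protein Etfdh by 0.24 (SE 0.14) and the acyl carrier protein Ndufab1 by -0.17 (SE 0.11), with limma adjusted p from 0.850 to 0.893. Ndufab1 is also a subunit of complex I. It and Cyc1, a subunit of complex III in this list (-0.095, SE 0.24), are not among the members because of their symbols.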

How the data were processed

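Expression was measured on 10 arrays, 5 from Sox17-transgenic and 5 from wild-type HSCs, grouped by sample title. The authors deposited log2 values for 35556 probe sets, processed by robust multi-array average (RMA) per the submitters' processing notes, which also name affy and limma. Their versions and settings, and the array's build, are not stated in the sources used here. RMA compresses differences between low values. Arrays have no read depth, and precision is limited by how many there are.

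The platform annotation names 1 gene for 21789 probe sets and several for 1621. These 23410 were fitted in R 4.3.3 with limma 3.58.1 (two-sided, eBayes, no covariate), adjusting p over all 23410 by Benjamini-Hochberg, and the fit was tested on simulated data. Named genes are the 4 members with the smallest p in each complex, the catalytic core of complexes I to III, the paralogs of complex IV with their partners, members whose probe sets differ in sign, and 3 genes with the smallest p of each pathway list. Other genes are named by the place they hold in a range or count and were chosen after their values were seen. Members and lists were chosen with earlier results of these data known. No set test was run. Alternatives covered blocks, scaling, the probe sets tested, the variance model, array weights, the threshold, averaging the probe sets of a gene and leaving out each array.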

Additional observations from a re-analysis of the deposited data

Results flagged for a closer look

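In 9 of 90 groups of 5 values examined, 1 array stood apart from the other 4 by Dixon's criterion, which chance passes in about 1 of 20. Among single genes these were Sdhd on wild-type array 2 (7.746, the others 7.42 to 7.50), Atp5k on transgenic array 3 (9.563, the others 10.06 to 10.21), Atp5md on transgenic array 5 (11.42, the others 11.08 to 11.15) and Cox7a1 on wild-type array 3 (7.016, the others 5.88 to 6.01). Cox7a2 and Cox8a stood apart on transgenic array 1, at 10.36 (the others 9.72 to 9.84) and 9.542 (the others 9.15 to 9.25). Of the means by complex, complex II was low on wild-type array 3 (-0.1204, the others 0.044 to 0.092), and complexes III and V were high on wild-type array 2 (0.168, the others -0.046 to 0.010, and 0.1083, the others -0.012 to 0.013).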

How the results depend on the processing

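The count of 0 members called held under every alternative run, and the members with an unadjusted p under 0.05 numbered 0 to 5. The number of probe sets called over the whole array was 33 and moved to 91 when the set of arrays was a block, 4 within set A, 6 within set B, 15 with all probe sets tested and 7 at an adjusted p of 0.01, and ranged from 15 to 71 when 1 array was left out. Leaving out 1 array gave 17 to 34 members higher. It gave medians of -0.12 to -0.010 for complex I, -0.065 to -0.037 for complex II, -0.084 to -0.0079 for complex III, -0.083 to -0.030 for complex IV and -0.087 to -0.021 for complex V. The complex III median difference became 0.037 within set B. With the replicate number as a block 33 probe sets and 0 members were called, with 25 members higher. Same-numbered arrays correlated in their deviations at -0.14 to 0.35, and 0 of 5 transgenic arrays correlated best with their own number, so the numbers were not taken as pairs.

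Some differences changed sign without a call, among them those of Ppargc1a and Cox7a1 (0.66 and -0.23 over all arrays), and the cause was not tested. Within set A these were Sdhc (0.063), Ndufs8 (0.055), Ndufv2 (-0.14), Cox8b (-0.090), Ndufa4l2 (0.15) and Atp5pb (-0.042). Within set B they were Sdhd (0.041), Atp5g3 (0.0092), Ndufs1 (0.073), Ndufv1 (0.11), Cox7a1 (0.032), Cox4i1 (0.042), Cox8a (-0.017) and Ppargc1a (-0.10). Quantile normalization gave Ndufs3 -0.0074, centring on array medians gave Sdhc 0.0042, array weights gave Sdhc 0.00084 and Cox8b -0.047, and averaging all probe sets of a gene gave Atp5pb -0.011. Leaving out 1 array gave Atp5pb -0.010 to 0.12, COX2 -0.11 to 0.0026, Cox6b1 -0.10 to 0.019, Cox8b -0.048 to 0.051, Cox8c -0.094 to 0.015, Ndufs3 -0.085 to 0.10, Ndufs8 -0.21 to 0.028, Sdhc -0.062 to 0.036 and Sdhd -0.093 to 0.038.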
